A study of Homo sapiens with 2 samples.

Results

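The zinc finger genes of human chromosome 19 were examined in Tu212 cells, an epithelial-derived line from a head and neck squamous carcinoma. They were taken as the protein-coding genes of the deposited table whose symbol is ZNF followed by a number alone and whose position lies on chromosome 19. This gave 240 of 58302 genes. One library came from cells treated for 48 h with a pEZ plasmid encoding PRMT5, an arginine methyltransferase, and 1 library from cells treated for 48 h with the pEZ vector alone. Both groups are the same line under the same incubator conditions, and the sources used here do not say whether the plasmid was carried in a clone or in a pool. The design asks which transcripts differ under PRMT5 overexpression. With 1 library per group no difference below has a replicate check, no test between conditions was possible, and the values describe these libraries.

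Most of these genes encode KRAB zinc finger proteins. A KRAB domain near the start of such a protein binds the co-repressor TRIM28, which brings in the histone methyltransferase SETDB1 and HP1 proteins, and the array of C2H2 zinc fingers behind it reads the DNA sequence. Many family members bind transposable elements, and the genes lie in tandem clusters on chromosome 19 that grew by duplication. Because of that origin, the finger-coding exons resemble one another, which matters for any assignment of short reads. To show the kind of sequence involved, 1 finger with the linker that follows it and the first cysteines of the next finger is given below for the 3 lowest and the highest of the well-read genes and for ZNF91, as coding-strand sequence from GENCODE release 29 on GRCh38, with the linker codons in capitals.
ZNF264: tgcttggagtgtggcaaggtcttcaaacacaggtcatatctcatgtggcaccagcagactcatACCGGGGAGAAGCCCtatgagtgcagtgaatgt
ZNF841: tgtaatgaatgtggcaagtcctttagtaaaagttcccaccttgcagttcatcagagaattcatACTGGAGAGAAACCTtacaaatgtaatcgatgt
ZNF766: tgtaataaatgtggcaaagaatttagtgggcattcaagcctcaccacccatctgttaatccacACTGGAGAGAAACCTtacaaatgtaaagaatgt
ZNF17: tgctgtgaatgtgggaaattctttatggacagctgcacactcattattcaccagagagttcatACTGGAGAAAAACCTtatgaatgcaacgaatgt
ZNF91: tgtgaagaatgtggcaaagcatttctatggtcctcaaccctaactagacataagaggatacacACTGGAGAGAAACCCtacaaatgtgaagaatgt

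These stretches lie in coding sequence at chr19:57212130-57212225 on the plus strand for ZNF264, chr19:52066748-52066843 on the minus strand for ZNF841, chr19:52290776-52290871 on the plus strand for ZNF766, chr19:57420570-57420665 on the plus strand for ZNF17 and chr19:23362082-23362177 on the minus strand for ZNF91. Long exact matches between genes were nevertheless rare. Of the 50-base stretches of each gene's longest transcript, taken every 10 bases, a median of 1.23% also occurred in a transcript of another gene, over the 181 genes with enough reads to be compared, where genes that share exon bases with the gene itself were set aside. The share was 20% or more for 4 of them. ZNF417 had 37.7% in common with other genes, nearly all with ZNF587. ZNF443 had 34.7%, most with ZNF799, so the reads of these pairs are uncertain. Outside the 181 genes, ZNF98 had 58.5%, most with ZNF492, and ZNF492 had 33.6%, most with ZNF98. Each of ZNF98 and ZNF492 had 0 reads in both libraries. Whether shared sequence removed reads of such genes was not tested.

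Gene counts summed to 19908258 reads in the PRMT5 overexpression library and to 14119997 in the vector control. PRMT5 itself, the check of the labels, had 295 CPM (counts per 1e6 reads after TMM scaling) in the PRMT5 overexpression library against 144 CPM in the vector control, a log2 ratio of 1.04. All 9 squamous and epithelial markers, among them KRT5, KRT14 and TP63, were detected, and their levels summed to 12595 CPM in the PRMT5 overexpression library and 11265 CPM in the vector control. The 5 fibroblast markers summed to 2.97 CPM in the PRMT5 overexpression library and 5.49 CPM in the vector control, with DCN at 0 reads under PRMT5 overexpression. The 4 leukocyte markers summed to 0.665 CPM under PRMT5 overexpression and 1.53 CPM in the vector control, with CD3E at 0 reads under PRMT5 overexpression and PTPRC at 0 reads in the vector control. The 4 endothelial markers summed to 4.50 CPM under PRMT5 overexpression and 5.91 CPM in the vector control, with CDH5 at 0 reads in both. Whether cells of other types contributed to the values below was not tested. In bulk RNA, fewer cells of a type and less RNA per cell cannot be told apart.

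Of the 240 genes, 181 reached 10 reads in one library or both and are compared below. The 59 others had at most 9 reads in either library, and 42 of them had none in both. At a floor of 3 reads this allows up to 0.153 CPM in the PRMT5 overexpression library and 0.209 CPM in the vector control. That bound covers counting error only, and not reads that shared sequence may have removed. Among those without a read were ZNF671, ZNF154 and ZNF568, the last of which has a mouse counterpart needed for embryonic development, and a run of genes of the primate-expanded 19p12 group such as ZNF208, ZNF257 and ZNF676. The genes past the floor were expressed at low levels. Their median was 8.44 CPM in the PRMT5 overexpression library and 9.67 CPM in the vector control, where the protein-coding genes past the same floor had medians of 30.4 CPM under PRMT5 overexpression and 30.1 CPM in the vector control. The ZNF genes of other chromosomes were at medians of 16.01 CPM under PRMT5 overexpression and 16.1 CPM in the vector control.

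Per kilobase of merged exon, ZNF146, a protein made almost entirely of fingers and without a KRAB domain, stood highest at 32.0 CPM per kb in the PRMT5 overexpression library and 32.4 CPM per kb in the vector control. It was followed by ZNF581 with 16.7 CPM per kb under PRMT5 overexpression and 20.5 in the vector control, and by ZNF358 with 16.4 CPM per kb under PRMT5 overexpression and 14.1 in the vector control. Each of the 3 shares exon bases with another counted gene, ZNF146 with ZNF565 on the opposite strand and ZNF581 with ZNF580 on the same strand. The median of the 181 genes was 1.68 CPM per kb under PRMT5 overexpression and 1.83 CPM per kb in the vector control.

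The zinc finger genes of chromosome 19 lay slightly below the rest of the transcriptome in the PRMT5 overexpression library. Of the 181 genes, 110 had a log2 ratio (PRMT5 overexpression over vector control) below 0, or 60.8%, where 45.2% of all 17777 genes past the floor did. Their median log2 ratio was -0.071, against 0.026 for all genes past the floor and 0.015 for all protein-coding genes. The ZNF genes of other chromosomes lay below 0 as well, with a median of -0.057 and 61.1% of 211 genes below 0. The other protein-coding genes of chromosome 19 lay on the opposite side, with a median of 0.056 and 37.6% of 814 genes below 0. Summed over all genes past the floor, the chromosome 19 zinc finger genes held 2327 CPM in the PRMT5 overexpression library and 2526 CPM in the vector control. Genes are not replicates, and no test of the difference between these groups of genes was possible.

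**Figure D1:**
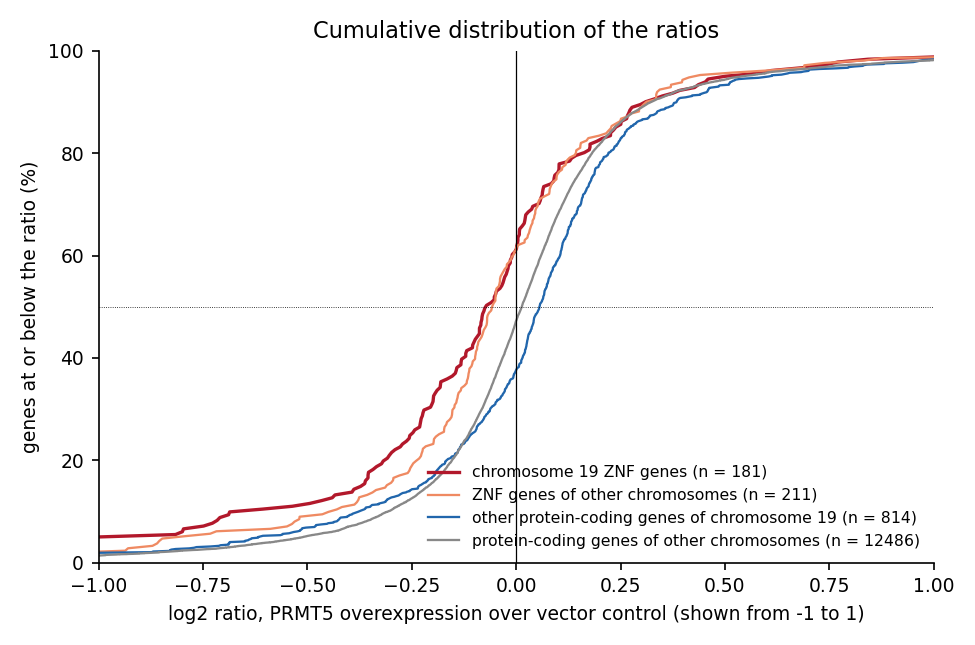
Cumulative share of genes (vertical axis, percent) at or below each log2 ratio of PRMT5 overexpression over vector control (horizontal axis), for genes past the floor of 10 reads, 1 library per group. The curves of both zinc finger groups cross 50% left of 0, at -0.071 for chromosome 19 and -0.057 for other chromosomes, and that of the other chromosome 19 genes crosses at 0.056.

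At the 2-fold threshold, 3 of the 181 genes were higher and 9 were lower in the PRMT5 overexpression library. The background over all genes past the floor was 2.98% higher and 1.79% lower, against 1.66% and 4.97% of the chromosome 19 zinc finger genes. At 1.5-fold, 8 genes were higher and 19 lower, or 4.42% and 10.5%, where 7.63% and 5.06% of all genes were. All genes include genes that are not protein-coding. Of the protein-coding genes past the floor, 1.82% were higher and 1.48% lower at 2-fold, and 4.56% higher and 4.19% lower at 1.5-fold. Of the ZNF genes of other chromosomes, 1.42% were higher and 1.90% lower at 2-fold, and 4.27% higher and 6.64% lower at 1.5-fold. The counting interval (95% Clopper-Pearson, covering counting error only) lay wholly below 0 for 31 genes and wholly above 0 for 12, or 17.1% and 6.63%, where 11.9% and 17.0% of all genes did so. Within 1.5-fold lay 85.1% of the genes. Of the 153 better-read genes, those averaging at least 50 reads, 4 stood 1.5-fold higher and 11 stood 1.5-fold lower, or 2.61% and 7.19%. The background over all genes at that depth was 2.92% higher and 2.24% lower, and over protein-coding genes 2.22% higher and 2.25% lower.

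Few reads widen ratios, so the genes were also set beside protein-coding genes of like read number. Among genes with a mean under 50 reads, 4 of 28 chromosome 19 zinc finger genes were 2-fold apart, or 14.3%, against 15.5% of all protein-coding genes. Between 50 and 200 reads it was 3 of 82, or 3.66%, against 3.36%. Between 200 and 1000 reads it was 5 of 69, or 7.25%, against 1.29% of 5719 protein-coding genes and 1 of 100 ZNF genes of other chromosomes. All 5 of these were lower, and 42 of the 69 had a log2 ratio below 0. Only 2 members had a mean of 1000 or more reads, and neither was 2-fold apart.

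**Figure D2:**
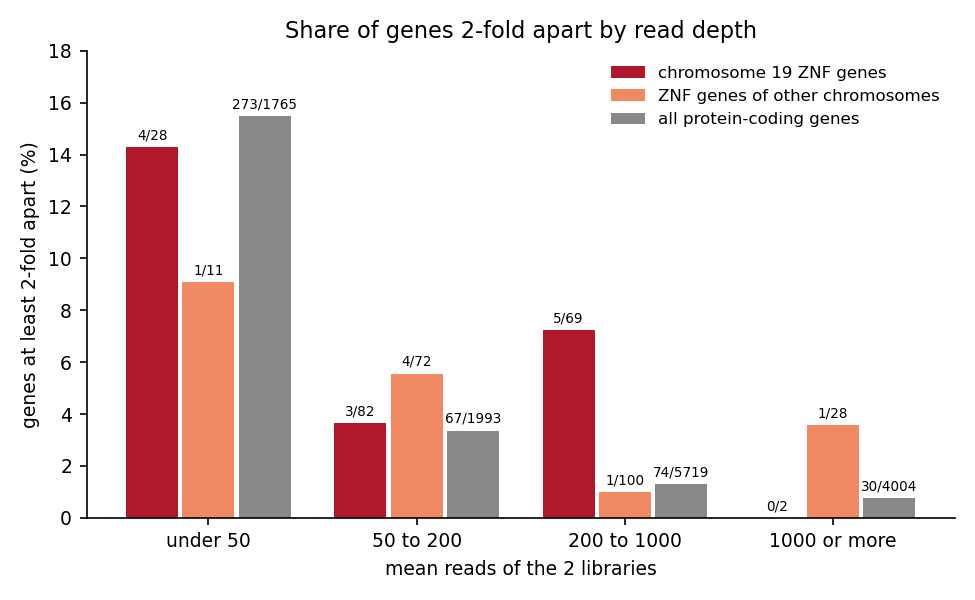
Share of genes at least 2-fold apart in either direction (vertical axis, percent) by mean reads of the 2 libraries (horizontal axis), with the number of genes apart and the number compared above each bar. The bars of the chromosome 19 zinc finger genes are close to those of all protein-coding genes below 200 reads and stand at 7.25% against 1.29% between 200 and 1000 reads.

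**Figure D3:**
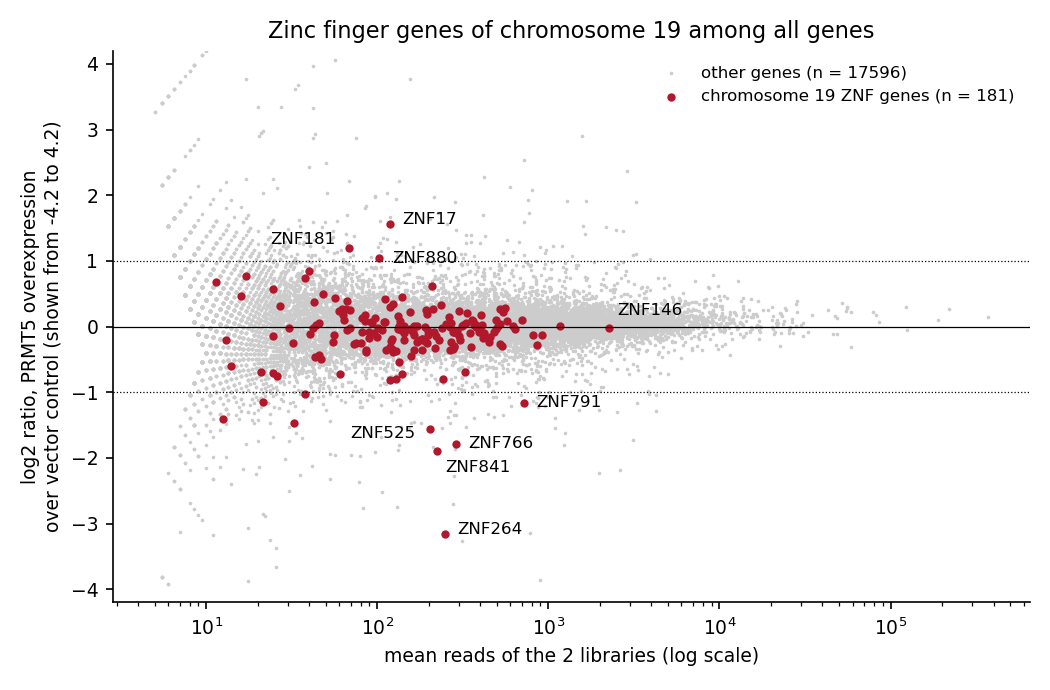
Log2 ratio of PRMT5 overexpression over vector control (vertical axis) against the mean reads of the 2 libraries (horizontal axis, log scale), one point per gene past the floor of 10 reads, the 181 chromosome 19 zinc finger genes in red. Dotted lines mark 2-fold. ZNF264, ZNF841, ZNF766, ZNF525 and ZNF791 lie below the lower line, and ZNF17, ZNF181 and ZNF880 above the upper one.

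Of the 9 lower genes, 5 had a mean of 50 or more reads, where 0.745% of all genes so well read were 2-fold lower. ZNF264, a KRAB protein with 13 predicted fingers, had 65 reads in the PRMT5 overexpression library and 433 in the vector control, or 3.32 against 30.1 CPM. It was 8.92-fold lower (log2 ratio -3.16, counting interval -3.58 to -2.80). The gene (ENSG00000083844) lies at chr19:57191500-57222846 on the plus strand, overlaps no exon of another counted gene, and 3.22% of its stretches occur in transcripts of other genes. ZNF841, with 20 predicted fingers, had 119 reads under PRMT5 overexpression and 328 in the vector control (log2 ratio -1.90, counting interval -2.22 to -1.60). It shares 199 exon bases with its neighbour ZNF432 on the same strand, and the sum of both genes had a log2 ratio of -1.31. ZNF766, with 7 predicted fingers, had 162 reads under PRMT5 overexpression and 414 in the vector control, which made it 3.46-fold lower. On the log2 scale this is -1.79 (counting interval -2.07 to -1.53).

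ZNF525 had 127 reads in the PRMT5 overexpression library and 278 in the vector control (log2 ratio -1.56, counting interval -1.89 to -1.27). ZNF791, the best read of the 5, had 542 reads under PRMT5 overexpression and 892 in the vector control, or 27.7 against 62.04 CPM. On the log2 scale this is -1.16 (counting interval -1.32 to -1.01), and the gene lies at chr19:12610918-12633840. None of ZNF264, ZNF766, ZNF525 and ZNF791 overlaps an exon of another counted gene, and at most 4.79% of their stretches occur elsewhere. Together the 5 genes held 51.9 CPM in the PRMT5 overexpression library and 163 CPM in the vector control. Their difference was -111 CPM, where the 3 well-read genes at least 2-fold higher differed by 13.5 CPM. Over all 181 genes the difference was -199.7 CPM, a net of higher and lower genes. The 5 genes were picked for their low ratios, so the sign of their difference was fixed by that choice.

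The 4 other lower genes had few reads. ZNF66 had 21 reads under PRMT5 overexpression and 44 in the vector control, and ZNF540 had 30 reads under PRMT5 overexpression and 46 in the vector control. ZNF350, which encodes a BRCA1-binding repressor also named ZBRK1, had 8 reads under PRMT5 overexpression and 17 in the vector control. ZNF625 had 16 reads under PRMT5 overexpression and 27 in the vector control. ZNF540 shares 117 of its 4304 exon bases with ZFP30 on the opposite strand. ZFP30 alone had a log2 ratio of 0.93 and the sum of both genes one of -0.033, so the lower value of ZNF540 was lost in the sum. The sources used here do not state strandedness, so reads in the bases that such opposite-strand pairs share cannot be told apart. Once summed with the counted gene it overlaps, ZNF625 had a log2 ratio of -0.89, under 2-fold.

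The 3 higher genes each had a mean of 50 or more reads, where 0.836% of all genes so well read were 2-fold higher. ZNF17, with 18 predicted fingers, had 191 reads in the PRMT5 overexpression library and 47 in the vector control, or 9.77 against 3.27 CPM. It was 2.95-fold higher (log2 ratio 1.56, counting interval 1.11 to 2.07). ZNF181 had 104 reads under PRMT5 overexpression and 33 in the vector control (log2 ratio 1.19, counting interval 0.64 to 1.82). ZNF181 shares 11.9% of its stretches with other genes, most of them with ZNF807. The neighbours of ZNF181, ZNF302 and ZNF599, were at 0.18 and -0.098, and 8.18% of the stretches of ZNF302 occur in ZNF181. ZNF880 had 152 reads under PRMT5 overexpression and 54 in the vector control (log2 ratio 1.04, counting interval 0.59 to 1.53). None of the 3 overlaps an exon of another counted gene. With a prior count of 5, ZNF880 at 0.99, ZNF540 at -0.93 and ZNF625 at -0.96 no longer reached 2-fold, which left 2 genes higher and 7 lower.

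**Figure D4:**
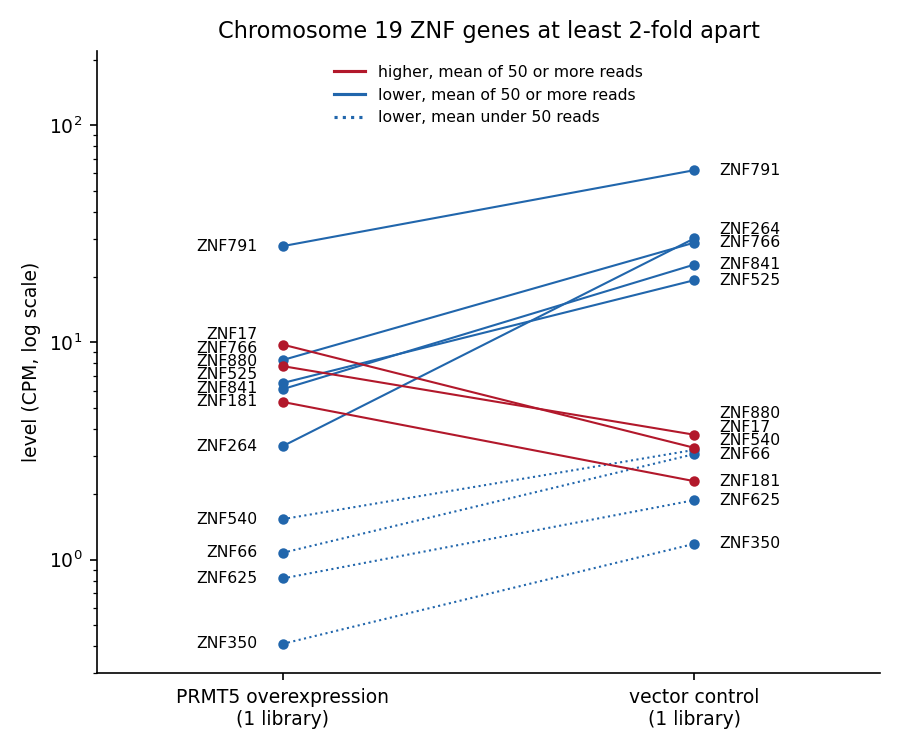
Level (vertical axis, CPM on a log scale) in the PRMT5 overexpression library (left) and the vector control library (right) of the 12 chromosome 19 zinc finger genes at least 2-fold apart, one line per gene, 1 library per group. ZNF264 stands at 3.32 CPM on the left and 30.1 CPM on the right, and ZNF17 at 9.77 CPM on the left and 3.27 CPM on the right.

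The lowest and the highest of the well-read genes lie in the same group of neighbouring genes, both on the plus strand. The 250 bases before the RefSeq start of each (GRCh38.p14) are shown for comparison, from chr19:57191250-57191499 for ZNF264 and from chr19:57410911-57411160 for ZNF17. Capitals would mark CACGTG, the palindromic E-box bound by MYC and MAX, and neither window holds it.
ZNF264: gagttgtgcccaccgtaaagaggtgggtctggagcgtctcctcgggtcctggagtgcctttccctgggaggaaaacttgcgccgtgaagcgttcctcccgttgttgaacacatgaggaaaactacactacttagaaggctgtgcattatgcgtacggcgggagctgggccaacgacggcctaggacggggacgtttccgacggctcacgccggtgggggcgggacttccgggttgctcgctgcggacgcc
ZNF17: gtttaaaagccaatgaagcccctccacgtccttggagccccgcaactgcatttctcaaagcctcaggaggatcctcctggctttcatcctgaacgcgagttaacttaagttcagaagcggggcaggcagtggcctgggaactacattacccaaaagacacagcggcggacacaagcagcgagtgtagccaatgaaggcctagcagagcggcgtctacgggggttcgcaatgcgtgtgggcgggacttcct

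The ZNF264 window holds 23 CG dinucleotides and the ZNF17 window 14. The median was 16 over the promoters of 209 chromosome 19 zinc finger genes matched by symbol and 11 over all 35116 promoters of the table. CACGTG, which reads alike on both strands, occurred in 7 of the 209 promoters, or 3.35%, and in 6.34% of all promoters of that length. A missing match says only that these letters are not in the window.

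Neighbours along the chromosome were compared next. Where a distance of over 1 Mb between successive starts opened a new group, the 240 genes fell into 16 groups, 9 of them with 5 or more members. The group at chr19:51571298-53580269 held 39 genes, of which 30 passed the floor, with a median log2 ratio of -0.060. It contained ZNF841, ZNF766, ZNF525 and ZNF350 among the lower genes and ZNF880 among the higher. ZNF613, beside ZNF350, was at -0.75 from 23 reads under PRMT5 overexpression and 29 in the vector control, and ZNF649 nearby at -0.61. The counting intervals of both, -1.63 to 0.06 and -1.84 to 0.52, hold 0. On the other side of ZNF350, ZNF615 had no reads and ZNF614 was at 0.16. Of the neighbours of ZNF841, ZNF432 was at -0.32, and ZNF616 was at -0.0031 from 308 reads under PRMT5 overexpression and 227 in the vector control. ZNF836 and ZNF480, on either side of ZNF766, were at 0.0032 and -0.20, and ZNF528, beyond ZNF880, was at -0.071. On the other side of ZNF880, ZNF610 had 0 reads under PRMT5 overexpression and 2 in the vector control.

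The group at chr19:55476332-58481230, near the end of the long arm, was the largest with 57 genes and 45 past the floor, and had a median of -0.060. ZNF264 was the only one of them 2-fold lower. ZNF805 beside it was at 0.064 from 128 reads under PRMT5 overexpression and 90 in the vector control, and ZNF835 on the other side had no reads. ZNF548 and ZNF17 are neighbours that differed in opposite directions, ZNF548 with 212 reads under PRMT5 overexpression and 272 in the vector control and a log2 ratio of -0.80. ZNF749, on the other side of ZNF17, was at -0.060.

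Medians of the groups with 5 or more members ran from -0.35 to 0.063. The lowest was -0.35 over 5 genes at chr19:2819874-2944971, where ZNF554 was lowest at -0.73 and ZNF556 alone was above 0, at 0.27. The 19p12 group at chr19:19668796-24129961 had a median of -0.18 over 21 genes past the floor, with 15 of them below 0, and another 16 members under the floor. The highest was 0.063 over 21 genes at chr19:43525497-45076588, where 12 were above 0. That group holds ZNF224, which encodes a repressor of the aldolase A gene, with 283 reads under PRMT5 overexpression and 136 in the vector control and a log2 ratio of 0.61. ZNF225 and ZNF155 of the same group were at 0.43 and 0.39, the second with a counting interval of -0.13 to 0.94 that holds 0. The group also had 9 genes below 0, the lowest of them ZNF296 at -0.71.

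**Figure D5:**
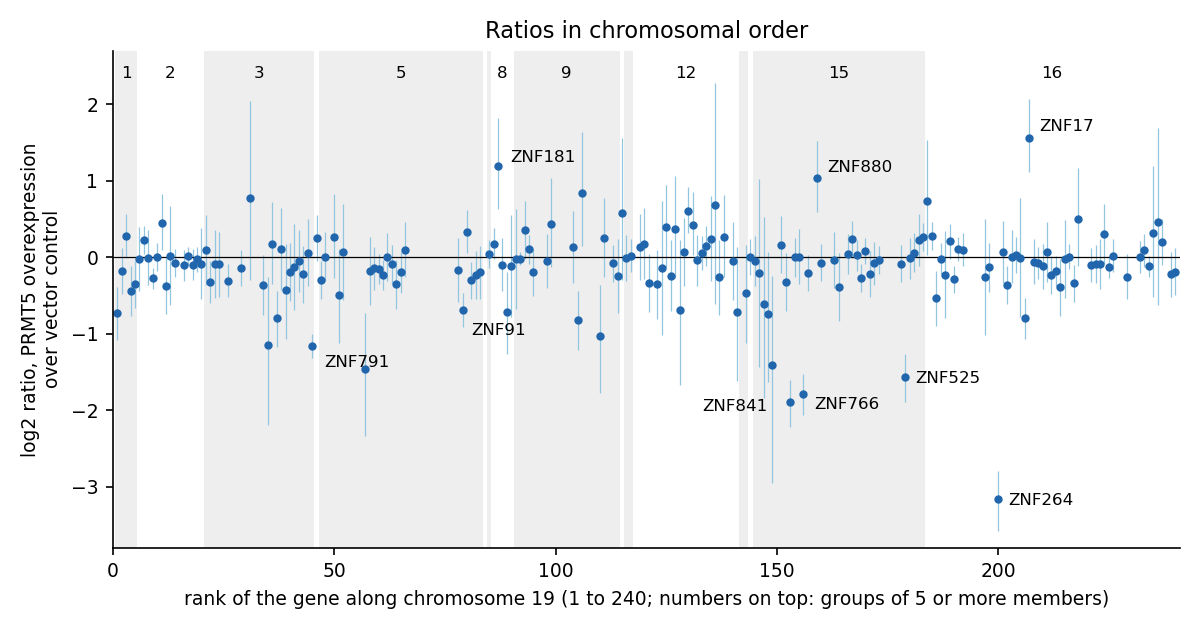
Log2 ratio of PRMT5 overexpression over vector control (vertical axis) with its 95% counting interval for the 181 genes past the floor, by rank of the gene along chromosome 19 (horizontal axis). Shading and numbers mark groups of neighbouring genes, 1 library per condition. ZNF264 at -3.16 stands beside ZNF805 at 0.064, and ZNF17 at 1.56 beside ZNF548 at -0.80.

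The coding sequences were read for features that the choice of genes did not use. A KRAB pattern was found in 199 of the 240 genes, a SCAN pattern in 3, and between 0 and 36 fingers per gene with a median of 12. The KRAB pattern was widened, to take in variant forms of the region, after values had been seen. The 151 genes past the floor with a KRAB pattern had a median log2 ratio of -0.085, with 97 below 0, and held all 12 genes that were 2-fold apart. They make up 151 of the 181 genes past the floor, so a count of all 12 is near their share. The 30 without a KRAB pattern had a median of 0.017, with 13 below 0. A KRAB domain in a form that the pattern does not take in would leave its gene in this group. Their median level was higher, 13.0 against 8.18 CPM under PRMT5 overexpression and 14.8 against 9.32 CPM in the vector control. Whether the pattern bears on the ratio was not tested. Genes with 9 or fewer fingers, 10 to 14 and 15 or more had medians of -0.088, -0.056 and -0.048. On the plus and minus strands the medians were -0.060 and -0.076.

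Members with a described role in the control of transposable elements or of other zinc finger genes differed among themselves. ZNF91, which represses SVA elements, had 299 reads under PRMT5 overexpression and 355 in the vector control, or 15.3 against 24.7 CPM. On the log2 scale this is -0.69 (counting interval -0.92 to -0.46), from a gene with 31 predicted fingers that shares 7.17% of its stretches with others. ZNF93, which represses LINE-1 elements, had 46 reads under PRMT5 overexpression and 48 in the vector control (log2 ratio -0.49, counting interval -1.12 to 0.11, which holds 0). ZNF274, which recruits SETDB1 to the ends of zinc finger genes, was at 0.00052, with 438 reads under PRMT5 overexpression and 322 in the vector control. ZNF85 and ZNF254 of the 19p12 group were at -0.18 and -0.20, the second at 0.084 once summed with the counted gene it overlaps, and ZNF43 had only 4 reads under PRMT5 overexpression and 7 in the vector control.

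Other members with described roles lay on both sides of 0. The imprinted gene ZNF331 had 651 reads under PRMT5 overexpression and 397 in the vector control (log2 ratio 0.27, counting interval 0.09 to 0.45). ZNF675, an inhibitor of TRAF6 signalling, was at 0.33, with an interval of 0.06 to 0.61. ZNF473, a part of the machinery that forms the ends of histone mRNAs, was at 0.0041, and the SCAN protein gene ZNF444 at 0.10. ZNF296, known from pluripotent cells of mouse, had 22 reads under PRMT5 overexpression and 27 in the vector control, at -0.71 with a counting interval of -1.62 to 0.13 that holds 0. ZNF382 had 0 reads under PRMT5 overexpression and 1 in the vector control, too few for a ratio.

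The best-read members lay near 0. ZNF146 had 2590 reads in the PRMT5 overexpression library and 1931 in the vector control, or 132 against 134 CPM, a log2 ratio of -0.020. ZNF121 and ZNF8 were at 0.014 and -0.12, and ZNF587 at -0.13. ZNF558 was lower at -0.28, with 905 reads under PRMT5 overexpression and 807 in the vector control and an interval of -0.42 to -0.14. The genes nearest the median of all 181, ZNF772, ZNF266 and ZNF528, were at -0.077, -0.075 and -0.071.

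Between 1.5-fold and 2-fold the well-read genes on the lower side were ZNF383, ZNF548, ZNF44, ZNF554, ZNF30 and ZNF91, with log2 ratios of -0.82 to -0.69. ZNF383 shares exon bases with ZNF585B on the opposite strand, and was at -0.36 once summed with it. ZNF524, a gene without a KRAB pattern at -0.54, was at -0.18 once summed with its neighbour FIZ1. Only ZNF224 lay in that range on the higher side among well-read genes. At lower ratios, ZNF57, ZNF416 and ZNF701 were at -0.44, -0.39 and -0.39. ZNF699 and ZNF850 were at 0.45 and 0.44, and ZNF566, ZNF814, ZNF579, ZNF556 and ZNF285 at 0.35 to 0.27, where ZNF814 was at -0.045 once summed with the genes it overlaps. The counting intervals of ZNF701, ZNF850, ZNF566, ZNF814, ZNF556 and ZNF285 hold 0.

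The listed co-repressors and partners of KRAB zinc finger proteins that passed the floor lay within 1.5-fold between the libraries. Of 32 listed genes, 31 were found in the table and 30 passed the floor, with a median log2 ratio near 0, 15 on each side and 0 of 30 at 1.5-fold in either direction, where 2.92% of all genes averaging at least 50 reads, as these 30 did, were higher and 2.24% lower by that fold. A count of 0 among 30 is near that background. SUV39H1, under the floor, had 0 reads under PRMT5 overexpression and 2 in the vector control. TASOR was not found under that symbol. TRIM28 had 4805 reads in the PRMT5 overexpression library and 3110 in the vector control, or 246 against 216 CPM (log2 ratio 0.18, counting interval 0.12 to 0.25). SETDB1 had 42.1 CPM under PRMT5 overexpression and 44.4 CPM in the vector control, a log2 ratio of -0.078. The range over the 30 genes past the floor was -0.22 for SMARCAD1 to 0.32 for ATF7IP2.

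Some zinc finger genes of chromosome 19 with related names were listed as well, and those named otherwise were not counted. Of 6 named ZNF with a letter at the end, 1 was 2-fold lower, ZNF324B with 40 reads under PRMT5 overexpression and 118 in the vector control and a log2 ratio of -1.97, where 0.745% of all genes averaging at least 50 reads were 2-fold lower. The other 5 lay between -0.21 for ZNF780A and 0.22 for ZNF780B. Of 15 genes named ZFP, ZSCAN, ZIM, ZIK1 or PEG3, 4 passed the floor, with ZFP30 at 0.93 from 63 reads under PRMT5 overexpression and 24 in the vector control, and ZSCAN22 at -0.0067.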

How the data were processed

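Polyadenylated RNA was sequenced, 1 library per group. The table holds raw counts and FPKM per gene as deposited by the authors. CASAVA 1.8, HISAT2 2.1.0, StringTie 1.3.4b and edgeR are named with GRCh38 and hg38 per the submitters' processing notes, without roles. Over 11471 genes with more than 100 reads per library, the length behind the deposited FPKM was in 92.2%, within 1%, the summed length of the distinct exons of GENCODE release 29, so overlapping exons count repeatedly; levels were therefore set per kilobase of merged exon here. The sources used here do not state strandedness.

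Counts were summed by symbol and scaled by TMM over all genes (edgeR 4.0.16, R 4.3.3; factors 0.982 for PRMT5 overexpression and 1.02 for vector control), then turned into log2 CPM with a prior count of 1. Ratios use genes that reached 10 reads in one library or both. No test was run. Intervals are Clopper-Pearson intervals at 95% from the reads of both libraries. Intervals, and floors of 3 reads, cover counting error only and no spread between replicate libraries. PCR copies of a molecule are counted alike, so the true counting error can be larger than they show. The depth, 19908258 and 14119997 reads, sets that precision. Exon overlaps (bedtools 2.31.1) were taken on either strand with genes of 10 or more reads; all 240 genes were found in GENCODE release 29, 233 with the same start and end. KRAB, SCAN and finger patterns were read from translated GENCODE coding sequences in place of RefSeq proteins. Promoters are from RefSeq (GRCh38.p14). The ratio and interval code was tested on simulated data. Python 3.11.15 was used. The members and lists were chosen with earlier results of these data known. Genes were named by a rule: among genes averaging at least 50 reads the 15 highest and 15 lowest ratios, the 5 best read, the 3 nearest the median, neighbours of the 3 highest and 3 lowest, members with a described role, and up to 4 thinly read genes each way. Others named as examples, among them ZNF154, ZNF208, ZNF257, ZNF676, ZNF358, ZNF581, ZNF417, ZNF443, ZNF799, ZNF613, ZNF649, ZNF614, ZNF615, ZNF324B and the ZFP and ZSCAN genes, were chosen after their values were seen. The alternatives tried were size factors from DESeq2 1.42.0, prior counts of 0.1 and 5, other floors, sums over exon-sharing genes, genes sharing no exon base, deposited FPKM with a pseudocount of 1 and a 1.5-fold threshold. Unused per-sample columns numbered 0.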

Additional observations from a re-analysis of the deposited data

How the results depend on the processing

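The 3 genes at least 2-fold higher and 9 lower became 5 and 15 with no floor on reads, 0 and 3 with deposited FPKM, and 8 and 19 at a threshold of 1.5-fold. With a prior count of 5 they were 2 and 7. The number lower was 5 with a floor of 50 reads and 5 where the mean had to reach 50 reads, settings that hold fewer genes by construction. The pseudocount of 1 shrinks FPKM ratios of such low genes by construction. The median log2 ratio of -0.071 was 0 with no floor, where 42 genes without reads stand at 0 by construction, and lay from -0.095 to -0.049 under the other alternatives. The lower end came from TMM on genes past the floor, chosen after seeing the data, as was leaving out genes with 20% or more shared stretches. The 63 named genes gave 270 recalculated values, and 265 of these lay inside the counting interval. The 5 others were sums with exon-sharing genes, for ZNF383, ZNF432, ZNF524, ZNF540 and ZNF841. Apart from such sums, the values reuse the same reads with another scaling or prior count, so lying inside was largely fixed by construction. The count of 265 is therefore no check of the ratios. No paired analysis was possible because there is a single library on each side. Depth limits genes with few reads, and a p-value needs further libraries.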
